A study of Mus musculus with 4 samples.

Results

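The genes described here are 34 genes of the unfolded protein response and the integrated stress response, chosen by name from the 29924 gene names of the arrays. All 34 had a probe, and all 34 passed the filter on dim probes that left 22455 genes for testing. They were read in E12.5 ureters of NMRI embryos (mouse, wildtype, sex not determined), which were clipped at the kidney and above the bladder and cultured on membranes without serum for 18 h. Treated explants received 10 µM IWP-2, which blocks Porcupine, the enzyme that attaches the lipid WNT ligands need to leave the cell. Control explants received the carrier DMSO alone. Each of the 4 arrays set RNA of 1 pool of treated ureters against RNA of 1 pool of control ureters, with the treated RNA in red on arrays 1 and 3 and in green on arrays 2 and 4. Nothing in the labels says whether the pools came from separate litters, so p-values measure a spread between these arrays that may in part be technical. The main fit held a dye term, so this is the spread between arrays of the same dye order. The SD printed beside a value also takes in the difference between the dye orders. The explants hold epithelium, mesenchyme and other cells together, so that fewer cells of a type and less RNA per cell cannot be told apart.

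The endoplasmic reticulum (ER) folds secreted and membrane proteins. When unfolded proteins accumulate, IRE1 (encoded by Ern1) splices Xbp1 mRNA, ATF6 is cut to release a transcription factor, and PERK (Eif2ak3) phosphorylates eIF2α. The first branches raise chaperones and the machinery of ER-associated degradation, which pulls misfolded proteins back to the cytosol. PERK and the other eIF2α kinases slow translation while favouring that of Atf4, whose protein raises Ddit3 (CHOP), Trib3, Asns and other genes of amino acid supply and cell stress. WNT ligands are themselves folded and modified in the ER, where Porcupine resides.

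The ER stress element, to which ATF6 and XBP1 bind, was looked for on both strands in RefSeq promoter windows (GRCm38.p6, 250 bases before to 50 after each start) as CCAAT and CCACG separated by 9 bases. Of the 34 genes, 30 had a window, while Manf, Hyou1, Atf6 and Derl1 did not. The element was found in 7 of 12 ER folding genes and in 2 of 6 ER degradation genes, against 0.137% of all genes with a window (37 of 27025). The sequences of 6 such genes before the start are shown, since these genes differ in function but share the element. Capitals mark its outer letters, in reverse complement (CGTGG and ATTGG) where it lies on the other strand. They are Hspa5 (chr2:34771990-34772089, plus strand), Pdia6 (chr12:17266469-17266588, plus strand), Hsp90b1 (chr10:86705445-86705664, minus strand), Creld2 (chr15:88819496-88819645, plus strand), Syvn1 (chr19:6046496-6046575, plus strand) and Derl3 (chr10:75893218-75893397, plus strand).
Hspa5: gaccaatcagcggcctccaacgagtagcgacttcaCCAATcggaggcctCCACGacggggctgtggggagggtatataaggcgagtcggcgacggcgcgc
Pdia6: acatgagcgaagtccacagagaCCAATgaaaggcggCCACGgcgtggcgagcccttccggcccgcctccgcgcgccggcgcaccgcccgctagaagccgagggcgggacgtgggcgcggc
Hsp90b1: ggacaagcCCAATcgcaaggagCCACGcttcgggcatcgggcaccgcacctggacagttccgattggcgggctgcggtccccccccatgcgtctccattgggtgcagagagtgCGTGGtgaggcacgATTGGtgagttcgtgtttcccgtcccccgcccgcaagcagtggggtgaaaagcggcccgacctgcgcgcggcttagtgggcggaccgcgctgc
Creld2: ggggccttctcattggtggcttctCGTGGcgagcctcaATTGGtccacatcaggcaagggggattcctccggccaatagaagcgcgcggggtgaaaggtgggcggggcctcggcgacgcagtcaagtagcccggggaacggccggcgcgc
Syvn1: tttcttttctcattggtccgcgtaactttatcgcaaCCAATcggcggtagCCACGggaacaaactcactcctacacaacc
Derl3: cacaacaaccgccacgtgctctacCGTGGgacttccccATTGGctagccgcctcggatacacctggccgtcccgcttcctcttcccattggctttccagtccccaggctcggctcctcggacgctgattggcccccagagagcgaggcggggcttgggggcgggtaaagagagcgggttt

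A letter match of this kind describes the window and was not read as a bound site. The shorter CCACG, which every ER stress element contains, was found in 24 of the 30 genes and in 35.5% of all genes with a window, and the element TGACGTGG in 0 of the 30 and in 0.714% of all genes. The composite element TGATGNAA, which ATF4 binds together with C/EBP proteins, was found in 3 of 5 ATF4-type stress genes, in Asns and in Herpud1, and in 4.51% of all genes with a window. In Trib3 it lay after the start and is not shown. The stretches before the start of Chac1 (chr2:119351042-119351241, plus strand), Atf3 (chr1:191183334-191183453, minus strand) and Asns (chr6:7693210-7693289, minus strand) are given with this element in capitals, because these genes of one type did not move alike.
Chac1: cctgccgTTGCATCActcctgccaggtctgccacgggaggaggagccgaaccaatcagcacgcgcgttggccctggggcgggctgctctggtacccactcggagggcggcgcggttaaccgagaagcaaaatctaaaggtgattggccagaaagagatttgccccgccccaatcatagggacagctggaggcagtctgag
Atf3: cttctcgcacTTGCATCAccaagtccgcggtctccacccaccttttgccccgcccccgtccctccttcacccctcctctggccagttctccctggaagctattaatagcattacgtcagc
Asns: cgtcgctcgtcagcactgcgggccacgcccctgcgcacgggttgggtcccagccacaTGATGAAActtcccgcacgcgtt

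With IWP-2, 20 of the 34 genes were higher, 3 were lower and 11 did not pass the test (limma with a dye term, adjusted p under 0.05 over all genes tested). Over all 22455 genes tested, 18.1% were higher and 15.0% were lower, so that calls in either direction were common in this experiment. The 20 rises lay between 0.14 and 1.06 on the log2 scale with a median of 0.31, and 19 of them were positive on all 4 arrays. The 3 falls, Asns, Phgdh and Psat1, lay between -0.95 and -0.26 and were negative on all 4 arrays. The median change was 0.21 over the 34 genes and 0.00 over all genes. The 11 genes not called had means between -0.14 and 0.19, and 3 of them had an unadjusted p under 0.05. The 4 treated channels stood above the 4 control channels without overlap in 16 of the 34 genes and in 11.0% of all genes, and below them in 3 of the 34 and in 11.5% of all genes. All values below are log2 ratios of IWP-2 over control unless a channel intensity is named, and errors are the SD between the 4 arrays.

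**Figure D1:**
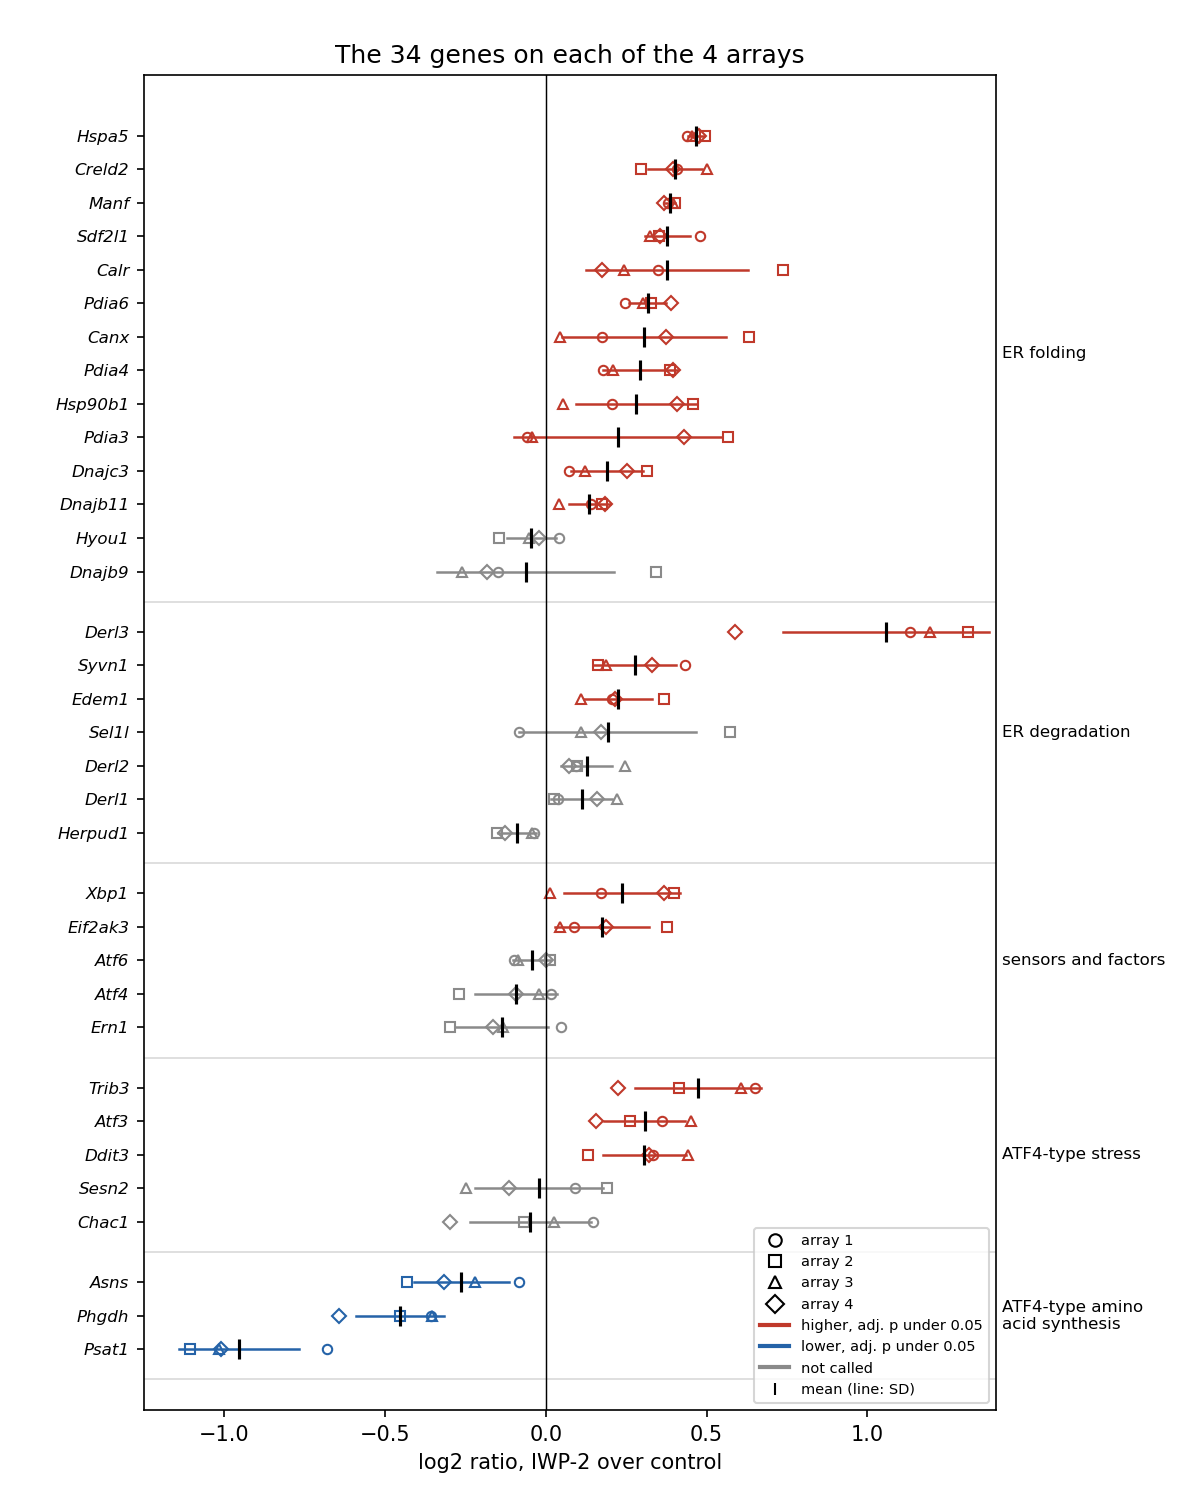
Log2 ratios of the 34 genes (horizontal axis, IWP-2 over control) on each of the 4 arrays, in 5 groups by the role of the protein, with the mean as a bar and the SD as a line. ER folding genes lie mostly to the right of 0, Derl3 stands at 1.06, and Asns, Phgdh and Psat1 lie to the left of 0.

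As a check of the treatment, 5 known WNT target or feedback genes were lower on every array. Their log2 ratios were -2.72 ± 0.28 for Sp5, -1.72 ± 0.16 for Apcdd1, -1.59 ± 0.08 for Nkd1, -1.56 ± 0.09 for Axin2 and -1.47 ± 0.16 for Lef1 (SD, n = 4).

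Of the 14 ER folding genes 12 were higher and 0 were lower. Hspa5 encodes BiP, the main chaperone of the ER and a restraint on all 3 sensors, and its probe lies at chr2:34631913-34631972 (mm9). The log2 channel intensities of Hspa5 were 16.40, 16.37, 16.28 and 16.54 in the controls of arrays 1 to 4 and 16.84, 16.86, 16.74 and 17.01 in the treated pools. Every treated pool was thus above every control pool. The ratios of 0.44, 0.50, 0.45 and 0.48 gave a mean of 0.47 ± 0.025 (SD, n = 4), a 1.38-fold rise, with a limma SE of 0.04 and an adjusted p of 0.000441.

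Among the smaller ER stress proteins, 3 were higher by a similar size. Manf, a small secreted protein that binds BiP, had ratios of 0.38, 0.40, 0.39 and 0.37, the smallest SD of the 34 genes (mean 0.39 ± 0.015, adjusted p = 0.0009). Creld2, an ER-resident stress protein, had 0.41, 0.30, 0.50 and 0.40 (0.40 ± 0.08, adjusted p = 0.00114). Sdf2l1, a partner of the ER J-proteins, had 0.48, 0.35, 0.32 and 0.35 (0.38 ± 0.07, adjusted p = 0.00163). In each of the 3 genes the treated channels stood above the control channels without overlap. The adjusted p of these genes and of Hspa5 stayed under 0.05 under every alternative setting.

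The 3 protein disulfide isomerases among the 34 genes, which form and exchange disulfide bonds in the ER, were higher, with different spreads between arrays. Pdia6 had ratios of 0.25, 0.33, 0.30 and 0.39 (0.32 ± 0.06, adjusted p = 0.00213), and a second Pdia6 probe gave 0.28 ± 0.07. Pdia4 had 0.18, 0.39, 0.21 and 0.40 (0.29 ± 0.11, adjusted p = 0.00247). Pdia3, which works on glycoproteins with calreticulin and calnexin, had -0.06, 0.57, -0.04 and 0.43, so that it was near 0 on the arrays with treated RNA in red and high on the others. Its mean was 0.22 ± 0.32 with an adjusted p of 0.00929, and without the dye term the adjusted p was 0.193.

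The glycoprotein chaperones and the ER form of HSP90 were higher with a wide spread between arrays. Calr, calreticulin, had 0.35, 0.74, 0.24 and 0.18 (0.38 ± 0.25, adjusted p = 0.0200). Its adjusted p was 0.0639 without array 1 and 0.170 with the authors' series table of fold changes as the source. Without array 2 its mean change was 0.24 (adjusted p = 0.0196). Canx, calnexin, had 0.17, 0.63, 0.04 and 0.37 (0.31 ± 0.26, adjusted p = 0.0079, and 0.0548 with median centring in place of loess). Hsp90b1, GRP94, had 0.20, 0.46, 0.05 and 0.41 (0.28 ± 0.19, adjusted p = 0.0047). The higher pair of Canx, of Hsp90b1 and of Pdia3 was arrays 2 and 4 in each case.

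The J-domain proteins, which drive the ATPase cycle of BiP, had smaller values or spread widely. Dnajc3 (P58IPK) had 0.07, 0.31, 0.12 and 0.25 (0.19 ± 0.11, adjusted p = 0.0126), with an adjusted p of 0.0525 without array 2 and 0.0585 without array 3. Dnajb11 (ERdj3) had 0.14, 0.17, 0.04 and 0.18 (0.14 ± 0.06, adjusted p = 0.0427). The Dnajb11 call was lost in 10 of 16 alternatives, among them leaving out any 1 array (adjusted p from 0.0742 without array 3 to 0.173 without array 1), and a second probe was not above background on any array. Dnajb9 (ERdj4), a target of spliced XBP1, had -0.15, 0.34, -0.26 and -0.18 and did not pass (-0.06 ± 0.27, adjusted p = 0.602); without array 2 it had -0.19 and an adjusted p of 0.0410. Hyou1 (GRP170), a large chaperone and exchange factor of BiP, had a mean of -0.04 ± 0.08 (adjusted p = 0.469, 95% interval of the fit -0.15 to 0.06). Its probe was dim, at 52.3 to 67.7 units of processed intensity in the controls.

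Of the 7 ER degradation genes 3 were higher and 0 were lower. Derl3, a derlin of the retrotranslocation complex, had the largest rise of the 34 genes. Its processed intensity was 46.5, 58.9, 69.8 and 106 units in the controls and 123, 170, 190 and 172 units in the treated pools, so that the groups did not overlap, though both were dim. The ratios were 1.13, 1.31, 1.19 and 0.59 (1.06 ± 0.32, a 2.08-fold rise, adjusted p = 0.00104, probe at chr10:75358503-75358562, mm9). Array 4, whose control channel was the brightest, had the smallest ratio. With the series table as the source, the change was 1.27 with an adjusted p of 0.0636.

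Syvn1 (HRD1), the ubiquitin ligase of the pathway, had ratios of 0.43, 0.16, 0.19 and 0.33 (0.28 ± 0.13, adjusted p = 0.0118). Edem1, a lectin that routes misfolded glycoproteins to it, had 0.21, 0.37, 0.11 and 0.22 (0.22 ± 0.11, adjusted p = 0.0117). With the series table as the source, the adjusted p was 0.0879 for Syvn1 and 0.0603 for Edem1. Sel1l, the partner of HRD1, had -0.08, 0.57, 0.11 and 0.17 and did not pass (0.19 ± 0.28, adjusted p = 0.0889), while leaving out 1 array gave values from 0.09 without array 2 (adjusted p = 0.331) to 0.29 without array 4 (adjusted p = 0.0107). The other derlins had smaller values. Derl2 had a mean of 0.13 ± 0.08 (adjusted p = 0.0668) and Derl1 of 0.11 ± 0.10 (adjusted p = 0.133). A second Derl1 probe gave 0.00 ± 0.05, and the other Derl2 probes gave 0.06 ± 0.10 and 0.08 ± 0.07. Herpud1, an ER membrane protein that binds HRD1 and is a target of several stress pathways, had -0.04, -0.15, -0.04 and -0.13 (-0.09 ± 0.06, adjusted p = 0.118). Herpud1 was the only gene of the 21 folding and degradation genes with a negative ratio on all 4 arrays. It was called lower in 1 of 16 alternatives.

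All 9 of the genes with an ER stress element in the window were higher, from 0.19 for Dnajc3 to 1.06 for Derl3. Of the ER folding genes with a window but no element, Pdia3, Pdia4, Dnajb11 and Sdf2l1 were also higher, and Dnajb9 was not called. Of such ER degradation genes, Edem1 was higher, and Herpud1, Sel1l and Derl2 were not called. The 34 genes were chosen as known stress genes, for which this element is well described. Outside the 34, of 16 tested genes with the element, 2 were higher and 0 were lower, against 19.4% higher and 15.2% lower of all 13953 tested genes with a window outside the 34. The 2 were Ero1lb, an ER oxidase (0.41), and Acacb (0.21), named here after their values were seen. Among 437 tested genes outside the 34 with TGATGNAA, 23.6% were higher and 16.7% were lower.

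**Figure D2:**
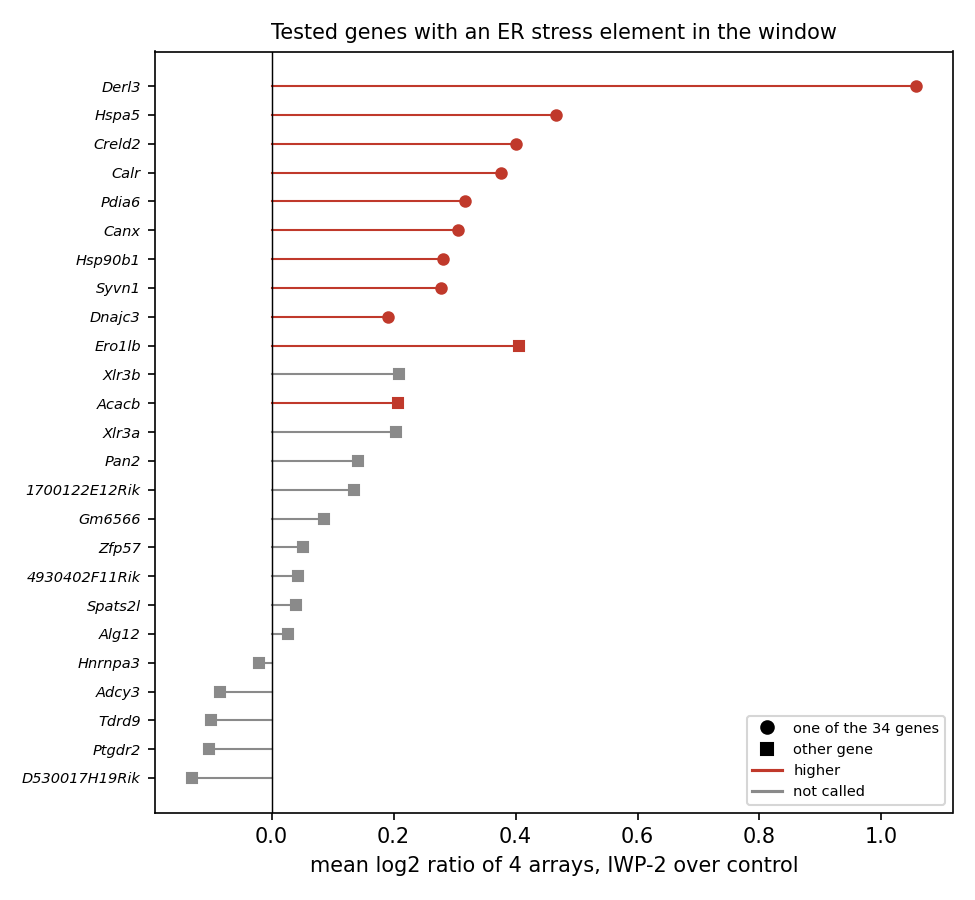
Mean log2 ratio of 4 arrays (horizontal axis, IWP-2 over control) of each tested gene whose promoter window holds the ER stress element, with circles for the 9 genes described here and squares for 16 other genes. The 9 circles lie between 0.19 and 1.06 and were all called higher, and 2 of the 16 squares were.

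Of the 5 sensors and factors, 2 were higher and 0 were lower. Xbp1 had ratios of 0.17, 0.40, 0.01 and 0.37 (0.24 ± 0.18, adjusted p = 0.00852, and 0.0776 with median centring). The arrays do not tell its spliced form apart. Eif2ak3, PERK, had 0.09, 0.38, 0.04 and 0.19 (0.17 ± 0.15, adjusted p = 0.0304). The Eif2ak3 call was lost in 7 of 16 alternatives (adjusted p = 0.103 without array 1, 0.137 without array 2 and 0.0781 without array 3). Atf6 had a mean of -0.04 ± 0.06 (adjusted p = 0.416). Ern1, IRE1, had 0.05, -0.30, -0.13 and -0.16 (-0.14 ± 0.14, adjusted p = 0.0772). Its probe was dim, at 73.7 to 94.1 units of processed intensity in the controls. The 3 other Ern1 probes were dimmer and had means between -0.03 and 0.08. The mRNA of Atf4, whose output is set mainly at translation, had 0.02, -0.27, -0.02 and -0.09 (-0.09 ± 0.13, adjusted p = 0.171). A second Atf4 probe gave -0.11 ± 0.14. With median centring in place of loess the Atf4 change was -0.18 with an adjusted p of 0.0336.

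The 8 ATF4-type genes were read as stress genes and genes of amino acid synthesis, classes set with earlier results of these data known. Of the 5 stress genes 3 were higher and 0 were lower, whereas all 3 genes of amino acid synthesis were lower. Trib3, a pseudokinase induced by ATF4 and CHOP, had log2 channel intensities of 12.48, 12.26, 12.29 and 12.59 in the controls and 13.13, 12.68, 12.90 and 12.81 in the treated pools. These groups did not overlap. Its ratios of 0.65, 0.42, 0.61 and 0.22 gave a mean of 0.47 ± 0.20 (1.39-fold, adjusted p = 0.000896).

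Ddit3, the transcription factor CHOP, had ratios of 0.33, 0.13, 0.44 and 0.32 (0.31 ± 0.13, adjusted p = 0.00489). With the series table as the source, the adjusted p of Ddit3 was 0.0707. Atf3, a bZIP factor of many stress pathways, had 0.36, 0.26, 0.45 and 0.16 (0.31 ± 0.13, adjusted p = 0.00302). Both had treated channels above the control channels without overlap. Chac1, which degrades glutathione, and Sesn2, a leucine-sensing inhibitor of mTORC1, had 2 positive and 2 negative arrays each. Their means were -0.05 ± 0.19 (adjusted p = 0.519, interval -0.17 to 0.08) and -0.02 ± 0.20 (adjusted p = 0.853, interval -0.20 to 0.16).

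Psat1 and Phgdh encode enzymes of serine synthesis and Asns makes asparagine. The log2 channel intensities of Psat1 were 15.18, 15.36, 15.22 and 15.41 in the controls and 14.49, 14.26, 14.20 and 14.40 in the treated pools. Every treated pool was below every control pool by a wide gap. The ratios of -0.68, -1.11, -1.02 and -1.01 gave a mean of -0.95 ± 0.19 (1.94-fold lower, adjusted p = 0.000194, probe at chr19:15979622-15979681, mm9), and a second probe gave -0.87 ± 0.19. Phgdh had -0.36, -0.45, -0.36 and -0.65 (-0.45 ± 0.14, adjusted p = 0.00102), with means of -0.40 and -0.38 from 2 further probes. Asns had -0.08, -0.43, -0.22 and -0.32 (-0.26 ± 0.15, adjusted p = 0.00662). Treated and control channels did not overlap in any of the 3, and each kept its call under all 16 alternatives.

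**Figure D3:**
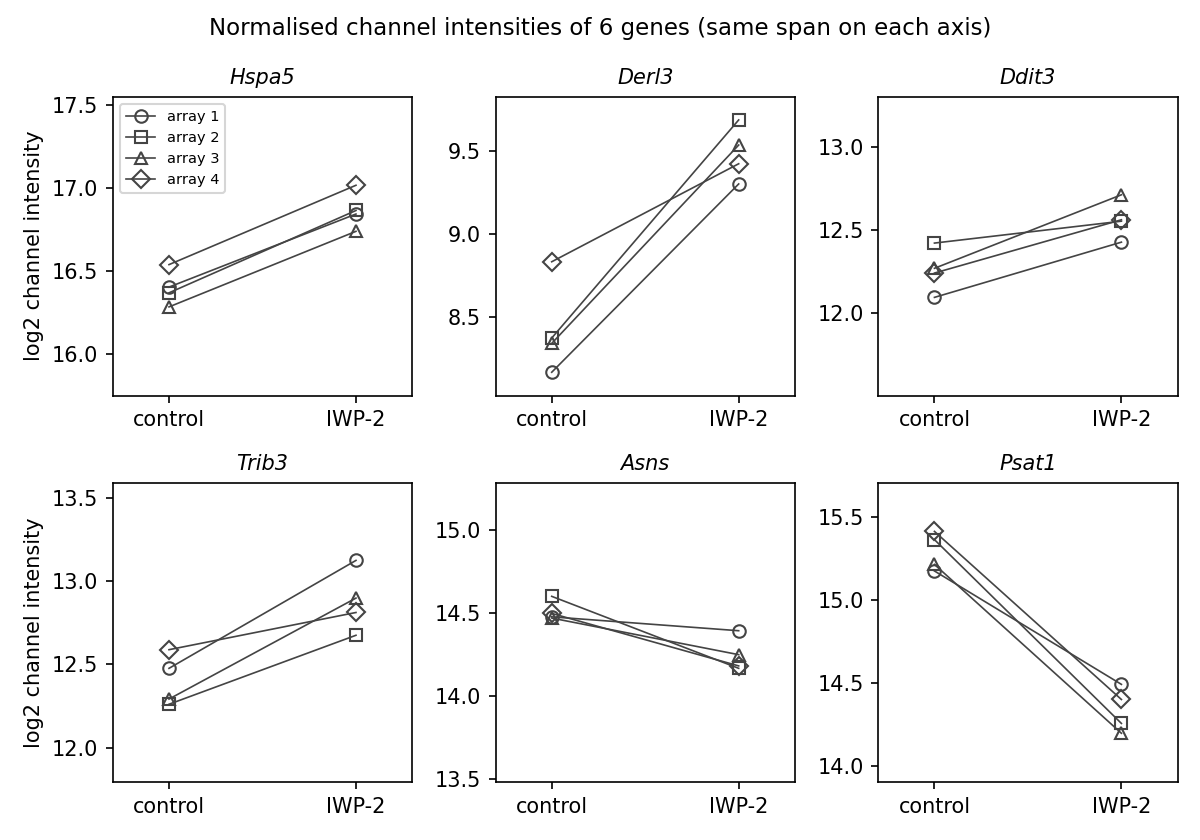
Normalised log2 channel intensity (vertical axis, same span on every panel) of 6 genes in the control and the IWP-2 channel, with a line for each array. The treated channels of Hspa5, Derl3, Ddit3 and Trib3 lie above all control channels, and those of Asns and Psat1 lie below.

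The ER folding genes and the ATF4-type genes were then compared as groups on each array, by the median of their ratios and without a test. The ER folding median was 0.19, 0.37, 0.17 and 0.37 on arrays 1 to 4 (0.27 ± 0.11), that of the ER degradation genes 0.09, 0.16, 0.19 and 0.17 (0.15 ± 0.04), and that of the 8 ATF4-type genes 0.12, 0.03, -0.10 and -0.21 (-0.04 ± 0.14). The median over all genes lay within 0.01 of 0 on each array. Folding minus ATF4-type was 0.07, 0.34, 0.26 and 0.58 (0.31 ± 0.21), positive on each array, and with the degradation genes added to the folding genes it was 0.30 ± 0.20. This difference rested on the genes of amino acid synthesis. Against the 5 ATF4-type stress genes alone, whose median was 0.33, 0.19, 0.44 and 0.16 (0.28 ± 0.13), the folding genes differed by -0.01 ± 0.24. The 3 genes of amino acid synthesis had a median of -0.36, -0.45, -0.36 and -0.65 (-0.45 ± 0.14).

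**Figure D4:**
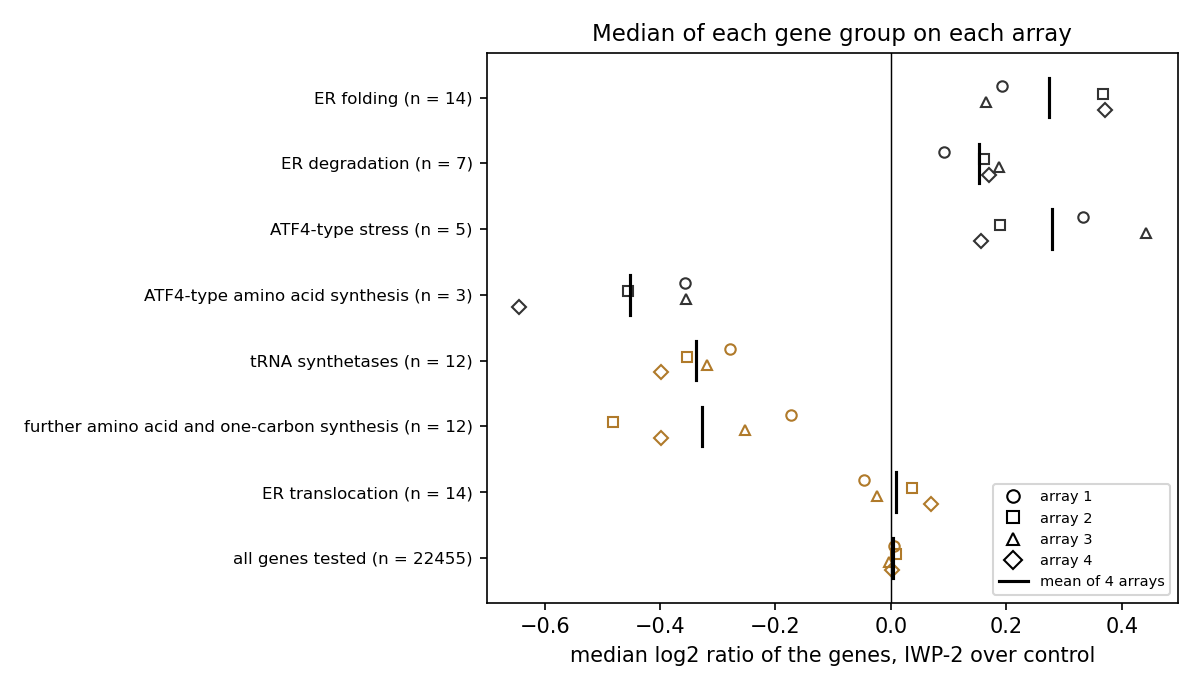
Median log2 ratio (horizontal axis, IWP-2 over control) of 4 groups of the genes described, 3 further lists and all genes tested, with a symbol for each array and a bar at the mean of 4 arrays. The ER folding, ER degradation and ATF4-type stress medians lie above 0 on every array, and the medians for amino acid synthesis and tRNA synthetases lie below 0 on every array.

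Further lists showed where these directions extended. The cytosolic tRNA synthetases, which charge tRNAs and many of which ATF4 induces, were lower in 10 of 12 and higher in 0 of 12, with a median of -0.35. Those with the largest falls were Mars (-0.46 ± 0.20, adjusted p = 0.00217), Aars (-0.46 ± 0.10, adjusted p = 0.000769) and Yars (-0.45 ± 0.05, adjusted p = 0.00053). Of 12 further genes of amino acid and one-carbon synthesis 9 were lower and 0 were higher, with a median of -0.38. The largest falls were in Aldh1l2, a mitochondrial folate enzyme (-0.68 ± 0.24, adjusted p = 0.00133), Gpt2, an alanine transaminase (-0.64 ± 0.14, adjusted p = 0.00058), and Pycr1, of proline synthesis (-0.45 ± 0.20, adjusted p = 0.00541). Psph, the last enzyme of serine synthesis, named after its value was seen, did not pass (-0.09 ± 0.07, adjusted p = 0.131). TGATGNAA was found in 5 of 8 tRNA synthetase windows and in 2 of 10 of the synthesis genes.

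Amino acid transporters of the ATF4 type were lower in 3 of 9 (Slc7a5 -0.48 ± 0.29, Slc1a4 -0.26 ± 0.10 and Slc7a3 -0.23 ± 0.27) and higher in 1, the cystine transporter Slc7a11 (0.20 ± 0.05). Slc7a3 had 0.06, -0.54, -0.09 and -0.36, so that it fell mainly on the arrays with treated RNA in green. Of 10 further stress genes of ATF4 and CHOP 4 were higher and 4 were lower. The largest rises were in the BH3-only cell death genes Pmaip1 (0.73 ± 0.20, adjusted p = 0.000497) and Bcl2l11 (0.42 ± 0.21, adjusted p = 0.0062) and in the death receptor gene Tnfrsf10b (0.29 ± 0.09, adjusted p = 0.00288). The largest falls were in the lipoprotein receptor gene Vldlr (-1.12 ± 0.05, adjusted p = 2.41e-05), Nupr1 (-0.40 ± 0.17, adjusted p = 0.0062) and Stc2 (-0.39 ± 0.18, adjusted p = 0.00518). Several of these genes have other regulators.

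Other genes of the ER were read from lists that do not overlap with the 34. Of 20 further ER folding genes 4 were higher and 2 were lower, with a median of 0.01. These counts were near the shares over all genes tested, of 18.1% higher and 15.0% lower. The rises were led by Ero1lb (0.41 ± 0.06, adjusted p = 0.000921), Pdia5 (0.22 ± 0.03, adjusted p = 0.00684) and Ero1l (0.19 ± 0.23, adjusted p = 0.0278). The falls were in Dnajc1 (-0.29 ± 0.10, adjusted p = 0.00247) and Fkbp11 (-0.18 ± 0.26, adjusted p = 0.0162). Fkbp11 had 0.02, -0.35, 0.06 and -0.45, so that it fell only on the arrays with treated RNA in green. Ero1l had -0.10, 0.37, 0.11 and 0.36 and rose mainly on those arrays. Of 14 further ER degradation genes Edem2 was higher (0.33 ± 0.11, adjusted p = 0.0048) and 0 were lower, with a median of 0.00. Of 14 translocation genes, which carry new proteins into the ER, 0 were called by limma, 0 had an unadjusted p under 0.05, and the changes lay between -0.11 and 0.10. The counts of the further lists were taken again only without the filter on dim probes, where 3 in place of 4 further ER folding genes and 3 in place of 2 further sensors and regulators were higher, and the other counts were equal.

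Among 15 further sensors and regulators 2 were higher, Cebpb (0.74 ± 0.15, adjusted p = 0.000404) and the RNA-activated kinase gene Eif2ak2 (0.20 ± 0.20, adjusted p = 0.0302). The 2 that were lower were Creb3l1, an ER-anchored factor of secretory cells (-0.51 ± 0.23, adjusted p = 0.00598), and the haem-regulated kinase gene Eif2ak1 (-0.20 ± 0.16, adjusted p = 0.0106). Of 12 measured heat shock genes, mitochondrial chaperones included, 3 were higher (Hspa1a 0.32 ± 0.11, Bag3 0.28 ± 0.20 and Hspb1 0.20 ± 0.13). Hsph1 was lower (-0.14 ± 0.07), and the median of the list was -0.03. Of 8 oxidative stress genes 3 were higher (Nqo1 0.39 ± 0.14, Hmox1 0.31 ± 0.16 and Gclm 0.23 ± 0.13) and 0 were lower. For comparison, 18.1% of all genes tested were higher and 15.0% were lower.

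Markers of several cell types also changed. All 7 epithelial markers were higher, by 0.24 to 0.34 with a median of 0.30, and their summed processed intensity ranged from 40673 to 54044 units in the controls and from 46183 to 67557 units in the treated pools. All 5 nephron progenitor markers (0.16 to 1.14), 4 of 6 endothelial markers (0.03 to 0.37 over the list) and 4 of 6 blood markers (0.15 to 0.30 over the list) were higher. The median of the blood markers was 0.36, 0.06, 0.46 and 0.08 on arrays 1 to 4, larger with treated RNA in red. Only 2 of the 6 blood markers were positive on all 4 arrays. Of the 6 mesenchymal markers 1 was higher and 1 was lower, with a median of 0.02. Of 4 macrophage markers 2 were higher (-0.05 to 0.19 over the list) and of 4 neural crest markers 1 was higher (-0.09 to 0.36), with 0 lower in either list. All 38 marker genes named on the array were well above background in at least 1 group on 4 arrays, and the part of a shift in cell types in the results above was not tested.

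The 2 dye orders were set against each other, since each array pair with the same order shares any dye effect. The mean of arrays 1 and 3 and that of arrays 2 and 4 had the same sign in 22 of the 23 called genes, with Pdia3 as the exception (-0.05 against 0.50). They differed by over 0.3 in 5 of the 34 genes, with the larger change in arrays 2 and 4 for Pdia3, Canx (0.11 against 0.50), Hsp90b1 (0.13 against 0.43) and Sel1l (0.01 against 0.37), and in arrays 1 and 3 for Trib3 (0.63 against 0.32). The dye term itself passed at an unadjusted p under 0.05 in 9 of the 34 genes and in 4233 of all genes, and after adjustment in 0 genes.

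**Figure D5:**
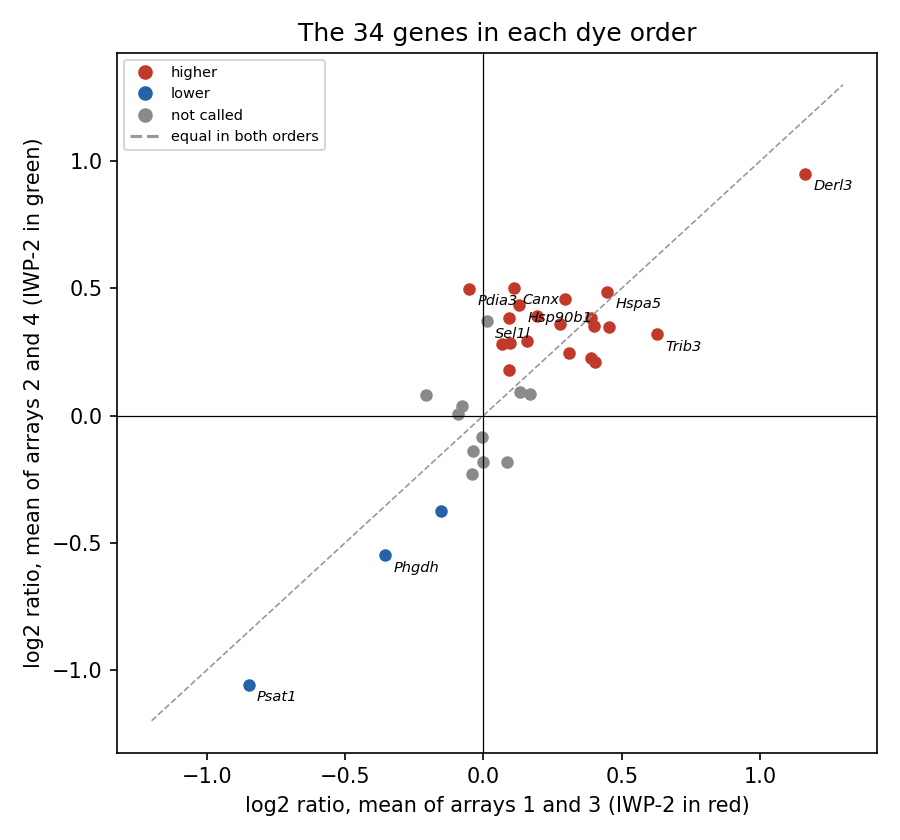
Mean log2 ratio of each of the 34 genes on arrays 1 and 3 (horizontal axis) against arrays 2 and 4 (vertical axis), with a dashed line where both are equal. Psat1, Phgdh and Derl3 keep their sign in both orders, and Pdia3, Canx, Sel1l and Hsp90b1 lie well above the line.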

How the data were processed

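Each 2-colour Agilent array compared 1 pool of IWP-2-treated ureters with 1 control pool. The authors scanned the arrays with Agilent Feature Extraction 10.7.3.1, and the deposited mean and background intensities of each spot are raw. The deposited processed intensity was background-subtracted, detrended and dye-normalised per the file headers. The deposited log10 ratio of red over green was used only to check direction (r = 1 to the ratio of the processed intensities). A series table by the authors, read as a score, holds signed fold changes to 1 decimal whose normalisation is not given in the sources used here. It followed treated over control (r from 0.987 to 0.992, column medians of 1) and served as an alternative.

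Raw intensities were corrected with normexp (offset 50), normalised by loess (span 0.3) and averaged over the 4 spots of each of 39429 probes, without control and outlier spots (3.01% to 3.38% of gene spots), in limma 3.58.1 and R 4.3.3. No gene spot was saturated. The median raw intensity was 368 to 711 in control and 385 to 694 in treated channels; the number of arrays limits precision. The offset draws dim ratios towards 0. A gene was tested if more than 0.5 of its probe's spots were well above background in the control channel, or the treated channel, of all 4 arrays, and its brightest probe stood for it. lmFit and eBayes were fitted on treatment direction with a dye term, with Benjamini-Hochberg adjustment over 22455 genes. Channel intensities are given after Aquantile normalisation. The fit was tested on simulated data. Names are those of the array design, and probe positions are on mm9, for which no annotation was used here.

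The 34 genes, their 5 classes, the further lists and the tests were chosen with earlier results of these data known. All 34 are named; of a further list at most the 3 largest changes past the test in each direction are named, and markers by counts and ranges. Emr1 and Hspa1b are not names on this array and were not analysed here. Promoter windows were matched by RefSeq symbol, or by a synonym held by 1 gene. There were 16 alternative settings for the fit and 3 for the classes.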

Additional observations from a re-analysis of the deposited data

Results flagged for a closer look

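For Derl2, array 3 stood apart, at 0.25 against 0.07 to 0.10 on the other 3 arrays, a gap of 0.864 of the range of the 4 values. Of 39 sets of 4 values looked at (34 genes and 5 class values) this was the only one past Dixon's limit, and chance flags about 1 in 20.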

How the results depend on the processing

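Of the 23 calls, 12 held under all 16 alternatives and 11 were lost under at least 1, and 0 turned direction. All 3 falls held under all 16. The calls lost most often were Dnajb11 (10 of 16) and Eif2ak3 (7 of 16); 4 genes not called passed under 1 alternative each. The difference between ER folding and ATF4-type medians changed sign with the ATF4-type stress genes alone, to -0.0058, and to -0.018 with the degradation genes added, by construction since Asns, Psat1 and Phgdh then leave the group. With the fold changes of the series table as the source, 1833 genes were higher, 2050 were lower and 12 of the 34 were higher. The 8 calls lost there were those of Calr, Canx, Dnajb11, Edem1, Syvn1, Derl3, Eif2ak3 and Ddit3. With the 8 channels taken as separate samples, 2033 genes were higher and 2068 lower, against 4068 and 3360. The causes were not tested. Leaving out 1 array gave 2878 to 3345 genes higher, 2180 (without array 3) to 2813 lower, 17 to 20 of the 34 higher, 3 lower (4 without array 2) and a class difference of 0.22 to 0.39 (0.22 to 0.38 with the degradation genes). The fit on ratios within arrays is the paired analysis here, and the 8 channels without the replicate block are its unpaired form, with 16 of the 34 genes higher and 3 lower. A slide or scan block could not be fitted, since all 4 arrays were on 1 slide. With a limit of 100 on the mean processed intensity over all channels, 32 of the 34 genes were left, without Hyou1 and Ern1. The study applied its own limit, an intensity over 100 with a fold change over 2, to each single array. Changes of dim genes such as Derl3 are limited by signal over background.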
